A study of Homo sapiens with 6 samples.

Results

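The translation initiation factors are the proteins that bring messenger RNA, the initiator transfer RNA and the ribosomal subunits together at the start codon. Their 47 genes were taken as the protein-coding rows of the deposited table named EIF1 to EIF6, without the eIF2 kinases and the eIF4E-binding proteins, out of 28847 genes in all and 15632 protein-coding ones. They comprise 4 genes of eIF1, 11 of eIF2 (6 named for eIF2 and 5 for its exchange factor eIF2B), 14 of eIF3, 12 of eIF4, 5 of eIF5 and 1 of eIF6. The names decided membership, so the set also holds EIF1AD, a nuclear protein with an eIF1A domain, EIF4A3, the helicase of the exon junction complex, and EIF4ENIF1, a carrier of eIF4E that serves in repression and import.

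The RNA is labelled as that of the human monocytic line THP-1, in 3 libraries labelled as given recombinant human RBP4, the plasma carrier of retinol, and 3 labelled as THP-1 alone, the controls. No dose, time or growth conditions are stated, and the series calls the cells a model of M0, or unpolarized, macrophages. Nothing says that the libraries came from separate cultures, so p-values measure the spread between these libraries. In bulk RNA, fewer cells of a type and less RNA per cell cannot be told apart.

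In outline, eIF1 and eIF1A keep the small ribosomal subunit open while it scans for a start codon, and eIF2, loaded with GTP and the initiator transfer RNA, delivers the first amino acid. The eIF4 factors recognise the cap and unwind the messenger, eIF3 is the large scaffold on the small subunit, eIF5 triggers GTP hydrolysis by eIF2, and eIF5B joins the large subunit. Stress kinases phosphorylate the alpha subunit of eIF2, which then holds back eIF2B and lowers initiation on most messengers, while a few messengers with upstream open reading frames are translated better.

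The RBP4 libraries held 15994483 to 16420517 reads and the control libraries 15202000 to 16149118, recovered from the deposited values, which are whole multiples of 1 step per library (here called normalized reads). Most monocyte markers were near 0: 3 of 20 reached 10 CPM (reads scaled to a fixed library total) in all 6 libraries, and CD14, CD68 and CSF1R stayed under 1 CPM, against 17 of 20 erythroid markers at 10 CPM or more. The marker levels thus ran against the labelled cell type, and the labels serve here only as names of the groups. The monocyte markers summed to 222 to 239 CPM in the RBP4 and 156 to 162 CPM in the control libraries. Most of that difference was CEBPB, at 101 to 109 CPM in the RBP4 and 43.3 to 46.0 CPM in the control libraries. SPI1 (43.95 to 48.1 CPM in the RBP4 and 38.6 to 39.75 CPM in the control libraries) was also higher without overlap. So were LYZ (15.5 to 17.8 against 9.5 to 12.8 CPM), ITGAM (9.6 to 12.6 against 5.9 to 7.2 CPM) and ITGAX (2.03 to 2.25 against 0.39 to 0.70 CPM). FCGR1A was too, at under 1 CPM in all libraries. CD36 (0.491 to 0.875 CPM in the RBP4 and 2.29 to 3.09 CPM in the control libraries) was lower without overlap. CD33 (44.8 to 50 CPM in the RBP4 and 49.7 to 57.5 CPM in the control libraries) had a lower median with RBP4, but the groups overlapped. The erythroid markers summed to 2484 to 2564 CPM in the RBP4 and 2757 to 2765 CPM in the control libraries. Epithelial markers summed to 33.8 to 37.5 CPM in the RBP4 and 51.2 to 55.5 CPM in the control libraries, and fibroblast markers to 12.04 to 13.7 CPM in the RBP4 and 8.23 to 10.7 CPM in the control libraries. T and NK markers summed to 4.00 to 4.36 CPM in the RBP4 and 4.53 to 5.53 CPM in the control libraries, and B cell markers to 6.88 to 7.06 CPM in the RBP4 and 5.30 to 8.22 CPM in the control libraries. The share of mitochondrially encoded reads was 7.58% to 7.69% in the RBP4 and 5.90% to 6.10% in the control libraries. The part of these differences in the results was not tested.

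All 47 genes passed the filter on low values (at least 10 normalized reads in at least 3 libraries). Among all 15676 genes tested with limma, and with 0.05 as the limit for the Benjamini-Hochberg adjusted p, 6 initiation factor genes rose and 23 fell in the RBP4 libraries, and 18 did not pass. The calls took in 61.7% of the members, beside 50.6% of all genes tested. Raised members made up 12.8%, beside 24.5% of all genes, and lowered members 48.9%, beside 26.1% of all genes. On the log2 scale the members' fold changes had a median of -0.12 and those of all genes tested one of -0.0021. Among the 12230 protein-coding genes tested, 56% were called, 26.6% raised and 29.4% lowered. By the authors' deposited table, an adjusted p under 0.05 was reached by 25 members, 5 raised and 20 lowered, all with the direction found here. Of all its 28847 genes, which include those below the filter on low values, 20.6% reached it (9.48% raised and 11.1% lowered). With DESeq2 on the recovered reads, 5836 of the 15676 genes past the filter were called, 2658 raised and 3178 lowered. When the libraries were scaled to total reads, 61.7% of the calls over all genes were raised, beside 48.4% with the deposited scaling. With total-read scaling 7 members rose and 18 fell, and their median was -0.053.

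Of the 47 genes, 34 were abundant, and most abundant genes were lower in the RBP4 libraries. Of these 34, which averaged at least 1000 normalized reads, 20 (58.8%) fell and 4 (11.8%) rose. Of all 3754 protein-coding genes at that level, 56.6% fell and 15.7% rose. The medians, -0.14 for these members and -0.12 for all such genes, were also close. The members' share of lowered genes was therefore near that of other abundant genes, and the sections that follow turn on which members moved most. Of the 13 members under 1000 normalized reads, 2 rose and 3 fell, a called share of 38.5%, beside 48.8% of all such protein-coding genes (31.4% raised and 17.4% lowered). Libraries of the groups stood apart without overlap in 35 members (74.5%), beside 56.2% of all genes tested, 60.7% of protein-coding genes and 74.8% of those with at least 1000 normalized reads.

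**Figure D1:**
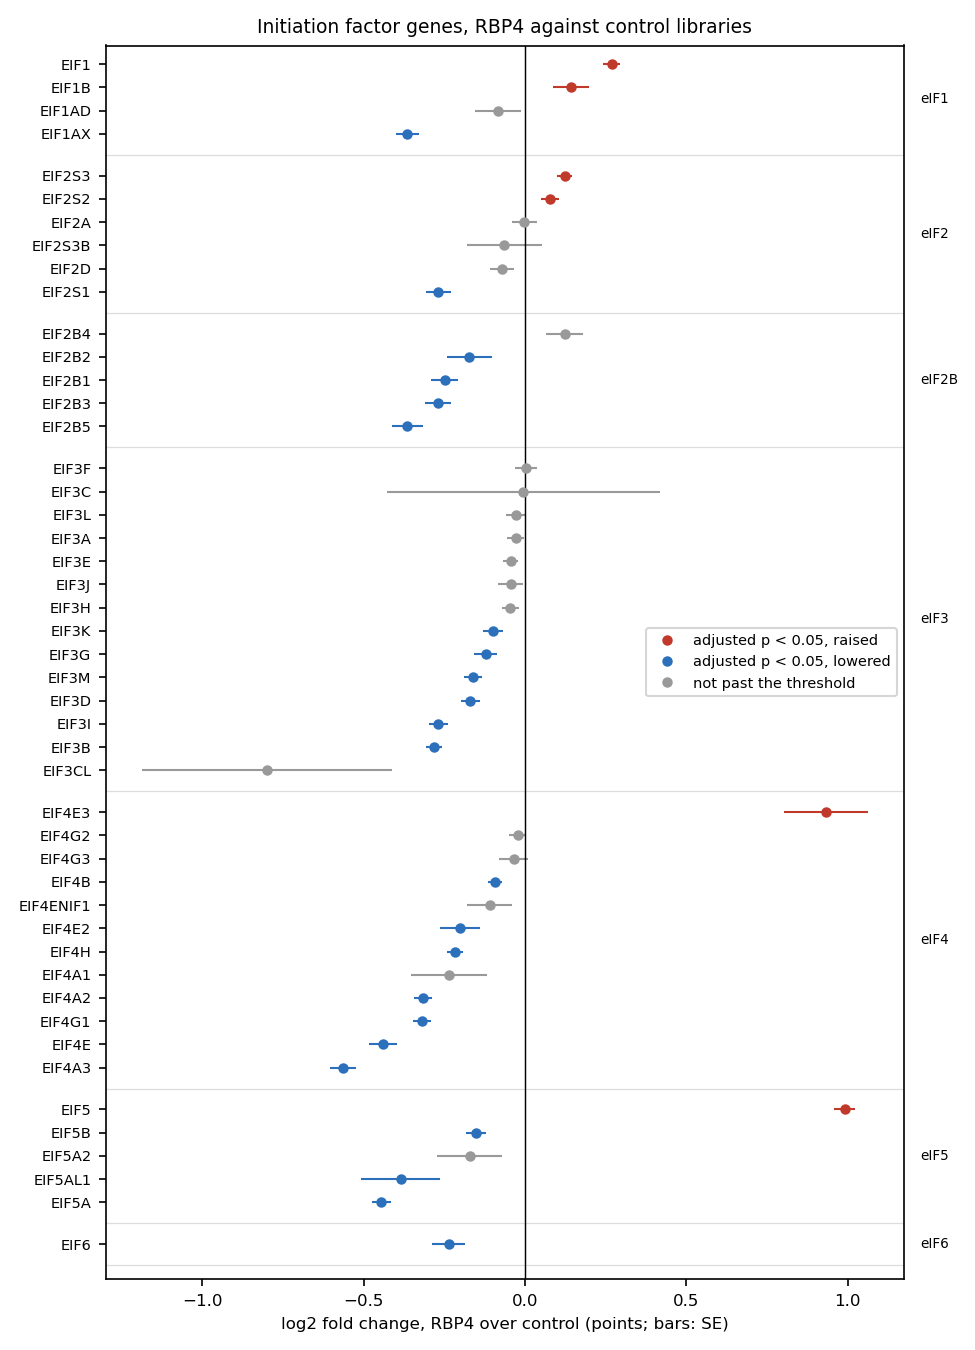
Log2 fold change of each of the 47 initiation factor genes, RBP4 over control, on the log2(normalized reads + 1) scale; points are estimates from limma and bars their SE (n = 3 libraries per group). EIF5 and EIF4E3 stand at 0.99 and 0.93, and every other called member lies between -0.56 and 0.27.

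EIF5 had the highest fold change of the 47 genes. Its product is the GTPase-activating protein of eIF2 and helps to fix the stringency of start codon choice. EIF5 (ENSG00000100664, chromosome 14, 103333544 to 103345025 on the plus strand of GRCh38) had 5118, 5079 and 5379 normalized reads in RBP4 libraries 1, 2 and 3, against 2526, 2701 and 2609.5 in control libraries 1, 2 and 3. All 3 RBP4 libraries lay far above all 3 controls. EIF5 averaged 5192 ± 163 normalized reads in the RBP4 and 2612 ± 87.2 in the control libraries (SD, n = 3 each), 1.99-fold higher with RBP4 (log2 fold change 0.99, SE 0.032, limma adjusted p = 2.5e-38). Among the 3754 protein-coding genes averaging at least 1000 normalized reads, its log2 fold change ranked 21 from the top, within the highest 0.559%. Among all 15676 genes tested it ranked 725, within the highest 4.62%. In the authors' deposited table its log2 fold change was 0.99. No annotated exon of another gene overlapped those of EIF5.

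Upstream sequence is shown for the pair of abundant raised genes with the highest fold change, EIF5 and EIF1, and for 3 lowered genes, EIF4A3, EIF4E and EIF4G1, whose windows hold the letters of an E-box. Each line gives the 250 bases before the most upstream RefSeq start, 5′ to 3′ in the direction of transcription (RefSeq, GRCh38.p14). Capitals mark any match, on either strand, to 4 motifs: TGATGNAA (the composite element that ATF4 binds with C/EBP partners), TGACGT (the core of the cyclic AMP response element), CCAAT (the CCAAT box) and CACGTG (the E-box bound by MYC with MAX). The windows lie at chr14:103333987-103334236, plus strand for EIF5, chr17:41688635-41688884, plus strand for EIF1, chr17:80147129-80147378, minus strand for EIF4A3, chr4:98929134-98929383, minus strand for EIF4E and chr3:184314356-184314605, plus strand for EIF4G1.
EIF5: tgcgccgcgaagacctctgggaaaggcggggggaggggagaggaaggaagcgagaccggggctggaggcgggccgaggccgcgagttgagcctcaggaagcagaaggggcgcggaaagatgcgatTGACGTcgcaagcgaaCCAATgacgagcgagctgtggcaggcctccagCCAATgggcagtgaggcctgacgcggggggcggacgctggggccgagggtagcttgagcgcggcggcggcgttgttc
EIF1: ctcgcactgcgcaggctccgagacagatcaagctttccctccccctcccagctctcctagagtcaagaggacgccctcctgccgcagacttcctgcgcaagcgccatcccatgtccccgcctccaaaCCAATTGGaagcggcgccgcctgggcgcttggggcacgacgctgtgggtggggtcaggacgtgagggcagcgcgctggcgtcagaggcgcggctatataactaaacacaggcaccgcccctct
EIF4A3: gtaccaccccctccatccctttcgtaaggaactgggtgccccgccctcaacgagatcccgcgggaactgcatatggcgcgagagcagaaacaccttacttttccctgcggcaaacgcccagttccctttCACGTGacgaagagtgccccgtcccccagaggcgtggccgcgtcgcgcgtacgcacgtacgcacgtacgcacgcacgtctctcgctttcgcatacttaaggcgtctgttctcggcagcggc
EIF4E: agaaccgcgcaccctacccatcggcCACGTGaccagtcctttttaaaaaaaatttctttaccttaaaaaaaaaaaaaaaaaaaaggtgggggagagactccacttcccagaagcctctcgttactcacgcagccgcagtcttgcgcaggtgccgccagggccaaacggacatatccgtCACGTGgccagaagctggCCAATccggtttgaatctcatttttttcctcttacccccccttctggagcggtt
EIF4G1: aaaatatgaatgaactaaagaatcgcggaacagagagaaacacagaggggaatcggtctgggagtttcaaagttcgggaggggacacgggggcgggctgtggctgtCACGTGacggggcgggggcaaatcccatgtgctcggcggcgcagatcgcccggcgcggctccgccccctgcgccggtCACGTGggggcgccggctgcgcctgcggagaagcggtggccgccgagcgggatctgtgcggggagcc

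The EIF5 window held the cyclic AMP response core starting 125 bases before the start and CCAAT boxes starting 109 and 77 bases before it. In EIF1 the 8 capitals are a CCAAT box at 123 bases and an overlapping one on the other strand at 120. E-boxes began 121 bases before the start in EIF4A3, 225 and 72 bases before it in EIF4E, which also held a CCAAT box at 54, and 144 and 67 bases before it in EIF4G1. Of the 47 genes, 40 had a window. The E-box was in 10 of these 40 (25%), among them 1 of 5 raised and 7 of 22 lowered genes, beside 6.46% of all 27305 windows and 10% of the 3086 windows of protein-coding genes averaging at least 1000 normalized reads. CCAAT was in 17 (42.5%), beside 33.0% of all windows and 37.3% of those of the abundant genes. TGACGT was in 3 (7.50%), beside 7.42% of all windows and 11.9% of those of the abundant genes. TGATGNAA was in 0, beside 3.19% of all windows and 0.94% of those of the abundant genes. The RefSeq start used lies downstream of the first base of the GENCODE gene by 1504 bases in EIF4E, 693 in EIF5, 111 in EIF4G1 and 55 in EIF4A3, and at that base in EIF1. A match says only that these letters are in the window.

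**Figure D2:**
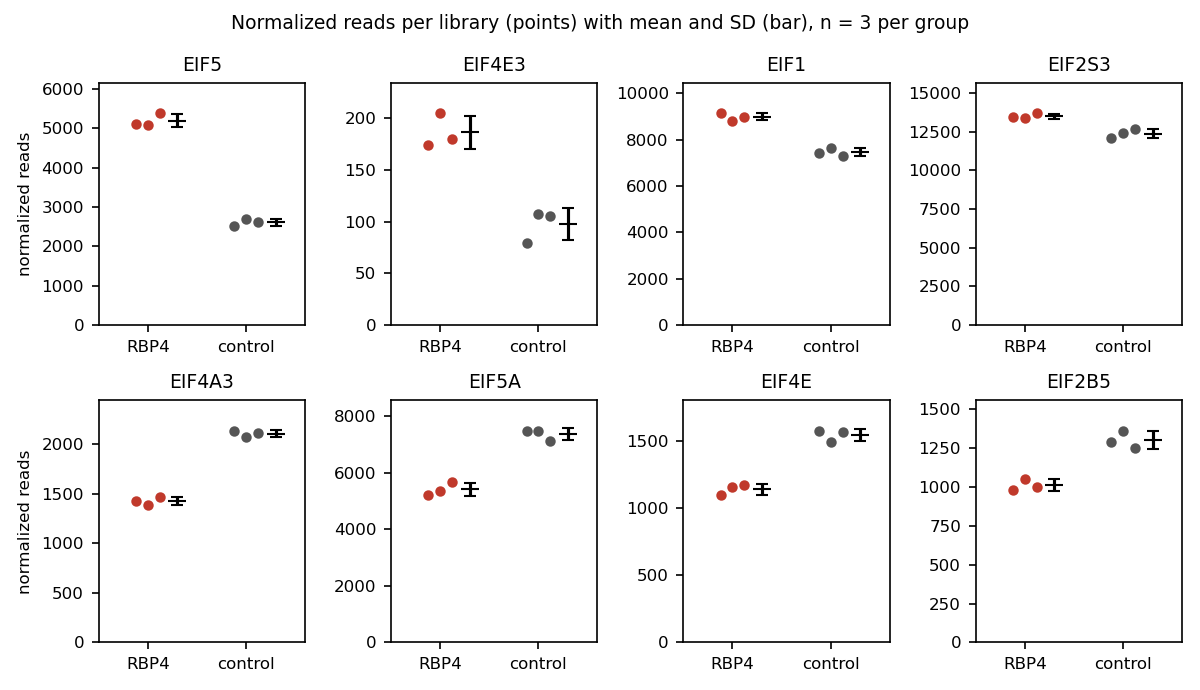
Normalized reads in each library (points) with mean and SD (bars; n = 3 per group) for 8 initiation factor genes, each axis starting at 0. The groups do not overlap in any panel, with EIF5 and EIF4E3 furthest above the controls and EIF4A3, EIF5A, EIF4E and EIF2B5 lower.

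The eIF1 genes moved apart. EIF1, whose product guards against initiation at wrong codons, had 9137, 8825 and 8995 normalized reads in the RBP4 libraries, against 7415, 7645 and 7316 in the controls. That was 1.20-fold higher with RBP4, and the groups did not overlap (log2 fold change 0.27, SE 0.026, limma adjusted p = 4.1e-14). EIF1AX, the gene of eIF1A on the X chromosome, had 2147, 2094 and 2264 normalized reads in the RBP4 libraries, against 2733, 2810.3 and 2827 in the controls. It fell 1.29-fold (log2 fold change -0.36, SE 0.036, limma adjusted p = 8.8e-14). EIF1B, a close copy of EIF1 by protein, had 856, 881 and 851 normalized reads in the RBP4 libraries, against 723, 789.9 and 835 in the controls. Its rise of 1.10-fold passed (limma adjusted p = 0.0252), but not without RBP4 library 2 (adjusted p = 0.0861) or control library 1 (0.22), or with DESeq2 (0.135). EIF1AD averaged 444 ± 19.8 normalized reads in the RBP4 and 472 ± 39.8 in the control libraries and did not pass (limma adjusted p = 0.331).

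Per length of annotated exons, and scaled so that all genes of a library sum to one fixed total (TPM), EIF1 stood at 529 ± 10.9 TPM in the RBP4 and 439.5 ± 10.1 TPM in the control libraries, above EIF1AX and EIF1B. Levels per length assume that every annotated exon is used, so they understate genes with long unused exons. The ratio of EIF5 to EIF1 per length was 0.239, 0.245 and 0.255 in RBP4 libraries 1, 2 and 3, against 0.145, 0.150 and 0.152 in control libraries 1, 2 and 3. It was higher in every RBP4 library, as EIF5 rose more than EIF1 did.

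Of the eIF2 subunits, alpha was lower and the others slightly higher. EIF2S1, the alpha subunit that stress kinases phosphorylate, had 1886, 1804 and 1981 normalized reads in the RBP4 libraries, against 2213, 2277 and 2336 in the controls. It fell 1.20-fold with no overlap (log2 fold change -0.27, SE 0.038, limma adjusted p = 1.6e-08). EIF2S3, the gamma subunit that binds GTP and the initiator transfer RNA, had 13426, 13354 and 13687 normalized reads in the RBP4 libraries, against 12086, 12415 and 12639.7 in the controls. This 1.09-fold rise was small but larger than the spread between libraries (log2 fold change 0.12, SE 0.023, limma adjusted p = 7.4e-06). EIF2S2, the beta subunit, had 5381, 5602 and 5691 normalized reads in the RBP4 libraries, against 5280.3, 5217 and 5300.5 in the controls, and rose 1.06-fold (limma adjusted p = 0.0196). That call was lost without RBP4 library 2 (0.0677), RBP4 library 3 (0.113) or control library 2 (0.0734).

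EIF2S3 was the gene with the highest level per length of the 47, at 829 ± 8.47 TPM in the RBP4 and 761 ± 15.0 TPM in the control libraries, and EIF2S1 stood at 71.4 ± 3.20 TPM in the RBP4 and 86.0 ± 2.10 TPM in the control libraries. The ratio of EIF2S1 to EIF2S3 was 0.0863, 0.0830 and 0.0889 in RBP4 libraries 1, 2 and 3, against 0.112, 0.113 and 0.114 in control libraries 1, 2 and 3. The ratio was lower in every RBP4 library than in any control. The 3 subunits together summed to 1336, 1339 and 1367 TPM in the RBP4 libraries, against 1255, 1268 and 1289 TPM in the controls. Their sum followed EIF2S3, and it did not overlap between the groups.

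The remaining genes named for eIF2 did not pass. EIF2A, which can bring the initiator transfer RNA to the ribosome without GTP, averaged 2025 ± 84.8 normalized reads in the RBP4 and 2027 ± 49.6 in the control libraries (limma adjusted p = 0.971). EIF2D, a factor of ribosome recycling and alternative initiation, averaged 1968 ± 22.6 normalized reads in the RBP4 and 2068 ± 8.25 in the control libraries (limma adjusted p = 0.101). EIF2S3B, a close relative of EIF2S3 on chromosome 12, averaged 159 ± 18.9 normalized reads in the RBP4 and 166 ± 15.0 in the control libraries, and reads of so close a copy can be exchanged with EIF2S3.

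The exchange factor eIF2B, which reloads eIF2 with GTP and is the target of phosphorylated eIF2 alpha, was lower in 4 of its 5 subunits. That share of 80% stood beside 26.1% of all genes tested and 56.6% of abundant protein-coding genes. EIF2B5, the catalytic epsilon subunit, had 979, 1055 and 1002 normalized reads in the RBP4 libraries, against 1293, 1364 and 1252 in the controls. It fell 1.29-fold (log2 fold change -0.36, SE 0.047, limma adjusted p = 1.1e-09). EIF2B3, the gamma subunit and the one with the highest level per length, had 1576, 1614 and 1739.8 normalized reads in the RBP4 libraries, against 1979, 1989 and 1966 in the controls. Its groups did not overlap either, and it fell 1.20-fold (log2 fold change -0.27, SE 0.04, limma adjusted p = 4.5e-08). EIF2B1, the alpha subunit of the regulatory core, fell 1.19-fold (limma adjusted p = 5.2e-07).

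EIF2B2, the beta subunit, averaged 411 ± 11.9 normalized reads in the RBP4 and 463 ± 30.9 in the control libraries and passed narrowly (limma adjusted p = 0.0375). Its call was lost without RBP4 library 1 (0.115), RBP4 library 2 (0.0802), control library 1 (0.0568) or control library 2 (0.212). It was also lost without a filter (0.0724) and with total-read scaling (0.227), TMM scaling (0.0559) or DESeq2 (0.164). EIF2B4, the delta subunit, went the other way, with 736, 716 and 716 normalized reads in the RBP4 libraries, against 691, 670.1 and 629.6 in the controls. Its log2 fold change of 0.12 did not pass (limma adjusted p = 0.0665), although it did without control library 1 (0.0389), with total-read scaling (0.00414), TMM scaling (0.0417) and edgeR (0.0433). Summed per length, the 5 subunits stood at 262, 266 and 269.9 TPM in the RBP4 libraries, against 309, 319.8 and 308 TPM in the controls. All RBP4 sums were below all control sums.

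By limma the eIF3 complex showed 6 lowered subunits, none raised (also none at an unadjusted p under 0.05) and 8 not past the threshold, with a median log2 fold change of -0.072. The called share, all of it lowered, was 42.9%. Among all genes tested 50.6% were called and 26.1% lowered, and among abundant protein-coding genes 72.2% and 56.6%. For a list of 14 genes, the called share was not far from that of all genes tested. It was below that of abundant protein-coding genes. The 14 include EIF3C and EIF3CL, which scattered widely within each group. EIF3B, a scaffold subunit of the core, had 8622, 8789 and 8583 normalized reads in the RBP4 libraries, against 10467, 10275 and 10886 in the controls. It fell 1.22-fold (log2 fold change -0.28, SE 0.025, limma adjusted p = 1.8e-15). EIF3I, a WD-repeat partner of EIF3B and the eIF3 gene with the highest level per length, had 3782, 3802 and 3811 normalized reads in the RBP4 libraries, against 4689, 4444 and 4592 in the controls. Its groups also stood apart, with a fall of 1.20-fold (log2 fold change -0.27, SE 0.03, limma adjusted p = 1.4e-11). EIF3G, the RNA-binding subunit that completes this module with EIF3B and EIF3I, fell 1.09-fold (limma adjusted p = 0.00348), a call lost without RBP4 library 1 (0.103) and with total-read scaling (0.222).

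EIF3D, a subunit that can bind the cap itself, fell 1.12-fold, and EIF3M, a PCI-domain subunit, 1.12-fold (limma adjusted p = 1.6e-06 and 1.9e-06). EIF3K, a small peripheral subunit, fell 1.07-fold (limma adjusted p = 0.00742), but not with total-read scaling (0.439). The other subunits outside the EIF3C pair stayed within 0.045 of 0 on the log2 scale: EIF3A, the largest subunit (-0.029), EIF3E (-0.044), EIF3F (0.004), EIF3H (-0.045), EIF3J, which is loosely bound (-0.044), and EIF3L (-0.027). None of these passed, and with total-read scaling all of them were above 0. In EIF3L, 51.8% of the annotated exonic bases overlapped other genes.

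EIF3C and EIF3CL are near-identical neighbours on chromosome 16, 284.7 kb apart, and reads can be split between them. EIF3C had 623, 1511 and 894 normalized reads in the RBP4 libraries, against 1156, 1066 and 691 in the controls. EIF3CL had 297, 200.2 and 195 normalized reads in the RBP4 libraries, against 439, 561 and 248 in the controls. Both scattered widely within each group and overlapped between them, and neither passed (limma adjusted p = 0.994 and 0.166). EIF3CL did pass without control library 3 (log2 fold change -1.13, limma adjusted p = 0.0267). Leaving the pair out, the other 12 subunits summed to 2639, 2664 and 2653 TPM in the RBP4 libraries, against 2910.2, 2879 and 2917 TPM in the controls.

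**Figure D3:**
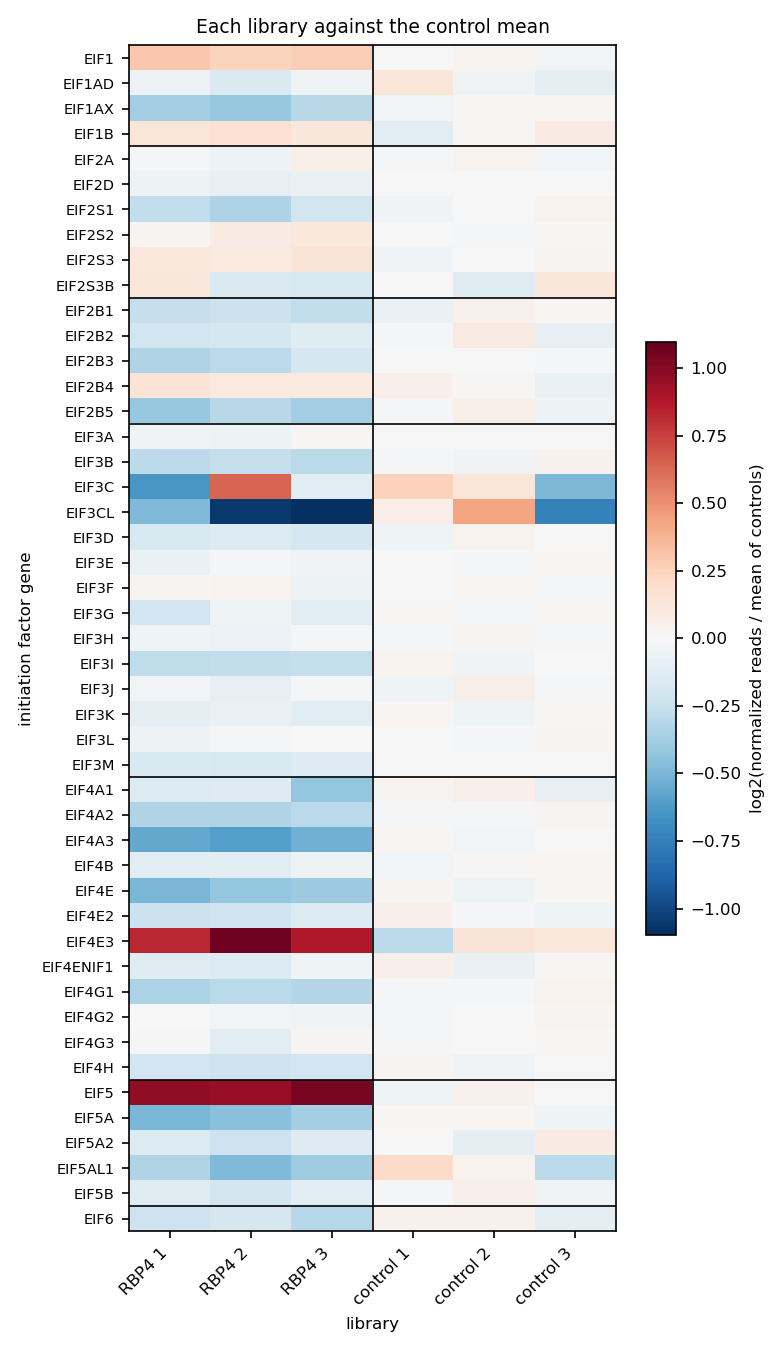
Log2 of normalized reads in each library over the mean of the 3 control libraries, for the 47 initiation factor genes (rows, in the order of their factors) and the 6 libraries (columns). EIF5, EIF4E3 and EIF1 are above the control mean in all 3 RBP4 libraries, most others are below it, and EIF3C and EIF3CL scatter within both groups.

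Of the 12 eIF4 genes, 7 (58.3%) were lowered, 1 (8.33%) was raised and 4 did not reach the threshold (median log2 fold change -0.21). Among all genes tested 26.1% were lowered and 24.5% raised, and among abundant protein-coding genes 56.6% and 15.7%. The lowered share was thus near that of abundant genes. EIF4A3 had the most lowered value of all called members, with 1424, 1389 and 1463 normalized reads in the RBP4 libraries, against 2138, 2069 and 2113 in the controls. It fell 1.48-fold (log2 fold change -0.56, SE 0.04, limma adjusted p = 5.3e-20). EIF4A2, a helicase that unwinds the leader of the messenger, had 4476, 4480.4 and 4579 normalized reads in the RBP4 libraries, against 5550.4, 5556 and 5744 in the controls. It fell 1.24-fold with no overlap (log2 fold change -0.32, SE 0.029, limma adjusted p = 4.9e-15).

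EIF4A1, its paralog and commonly the main form in dividing cells, had only 153, 153 and 126 normalized reads in the RBP4 libraries, against 173, 176 and 158 in the controls. Its level per length was 5.78 ± 0.647 TPM in the RBP4 and 6.79 ± 0.387 TPM in the control libraries, against 157 ± 1.43 TPM in the RBP4 and 196 ± 3.44 TPM in the control libraries for EIF4A2. In the annotation, 86.8% of the coding bases of EIF4A1 are also exons of other genes, chiefly the read-through genes SENP3-EIF4A1 and AC016876.2 on the same strand, which were listed at 0 to 2.01 and 0 to 4.83 normalized reads. How the counter treated reads shared by genes is not given, so the EIF4A1 level is uncertain and no ratio of the paralogs was drawn. Its difference did not pass (limma adjusted p = 0.0868).

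The cap-binding genes moved in opposite directions. EIF4E, the cap-binding protein of canonical initiation, had 1097, 1156 and 1172 normalized reads in the RBP4 libraries, against 1580.3, 1497 and 1569 in the controls. It fell 1.36-fold (log2 fold change -0.44, SE 0.044, limma adjusted p = 2.2e-13). EIF4E3, a low-abundance relative that binds the cap in a different way, had 174, 205 and 180.3 normalized reads in the RBP4 libraries, against 79.7, 108 and 106 in the controls. The groups did not overlap and it rose 1.91-fold (log2 fold change 0.93, SE 0.13, limma adjusted p = 5.7e-09). Of its coding bases, 84.4% also lie in exons of AC097634.4 on the same strand, a gene not analysed here. Reads of that gene may be among those of EIF4E3, or shared reads may be left out, so the EIF4E3 level is uncertain.

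EIF4E2, a cap-binding relative that acts in repression, had 497, 502 and 529 normalized reads in the RBP4 libraries, against 611, 579 and 569 in the controls. It fell 1.15-fold (limma adjusted p = 0.00605), but not with total-read scaling (0.0748) or DESeq2 (0.0536). The ratio of EIF4E3 to EIF4E per length was 0.207, 0.231 and 0.201 in RBP4 libraries 1, 2 and 3, against 0.0658, 0.0938 and 0.0882 in control libraries 1, 2 and 3. By these levels EIF4E3 was below EIF4E per length in every library, at a higher ratio in each RBP4 library. The ratio shares the uncertainty of the EIF4E3 level. EIF4ENIF1 averaged 429 ± 17.3 normalized reads in the RBP4 and 462 ± 20.0 in the control libraries and did not pass (limma adjusted p = 0.194).

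Among the eIF4G scaffolds, one fell and the other two did not pass. EIF4G1, which links the cap-binding protein, the helicase and eIF3, had 6079, 6299 and 6185 normalized reads in the RBP4 libraries, against 7590.2, 7611 and 7947 in the controls. It fell 1.25-fold with no overlap (log2 fold change -0.32, SE 0.027, limma adjusted p = 2.7e-16). EIF4G2, a relative without the eIF4E-binding part, had 8217, 7997 and 7942 normalized reads in the RBP4 libraries, against 8061, 8145 and 8332 in the controls (limma adjusted p = 0.486). EIF4G3, the second full-length scaffold, had 1318, 1233 and 1362 normalized reads in the RBP4 libraries, against 1327, 1335 and 1345 in the controls (limma adjusted p = 0.537). The ratio of EIF4G2 to EIF4G1 per length was 1.29, 1.21 and 1.23 in RBP4 libraries 1, 2 and 3, against 1.01, 1.02 and 1.00 in control libraries 1, 2 and 3, so EIF4G2 exceeded EIF4G1 by more in the RBP4 libraries. That of EIF4G3 to EIF4G1 was 0.187, 0.168 and 0.190 in RBP4 libraries 1, 2 and 3, against 0.150, 0.151 and 0.146 in control libraries 1, 2 and 3. Both ratios were above every control value in all RBP4 libraries.

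The cofactors of the helicase were lower by small amounts. EIF4H had 9493, 9397 and 9481 normalized reads in the RBP4 libraries, against 11219, 10709.8 and 11025 in the controls, and fell 1.16-fold (log2 fold change -0.22, SE 0.024, limma adjusted p = 1.5e-11). EIF4B had 15900.1, 15877 and 16568 normalized reads in the RBP4 libraries, against 16787, 17346 and 17413 in the controls. That fall of 1.07-fold passed (limma adjusted p = 3.8e-04), but not with total-read scaling (0.375). EIF4A2 and EIF4G1, partners in the cap complex, kept nearly one ratio per length: 0.991, 0.958 and 0.997 in RBP4 libraries 1, 2 and 3, against 0.985, 0.983 and 0.973 in control libraries 1, 2 and 3. EIF2B5 and EIF4G1 lie 168.4 kb apart on chromosome 3.

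Of the other 4 genes named for eIF5, 3 fell. With EIF5 counted, 60% of the 5 genes fell, beside 26.1% of all genes tested and 56.6% of abundant protein-coding genes. EIF5A encodes the hypusine-bearing factor that helps the ribosome through difficult peptide bonds. EIF5A had 5195, 5357 and 5669 normalized reads in the RBP4 libraries, against 7473, 7487 and 7118 in the controls. It fell 1.36-fold with no overlap (log2 fold change -0.45, SE 0.029, limma adjusted p = 1.8e-20), while 37.2% of its coding bases overlap exons of GPS2 on the opposite strand, a gene at 25.7 to 44.4 normalized reads. EIF5AL1, an intronless copy of EIF5A on chromosome 10, had 140.2, 126 and 134 normalized reads in the RBP4 libraries, against 204, 181 and 143 in the controls. It was called lowered (limma adjusted p = 0.00626), but not without control library 1 (0.0889) or with DESeq2 (0.053), and reads of so close a copy can come from EIF5A.

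EIF5A2, the second hypusinated form, had 196, 186 and 198 normalized reads in the RBP4 libraries, against 219, 203 and 232 in the controls and did not pass (limma adjusted p = 0.155). EIF5B had 3779.5, 3597 and 3780.0 normalized reads in the RBP4 libraries, against 4074, 4291 and 4032 in the controls. It fell 1.11-fold (log2 fold change -0.15, SE 0.032, limma adjusted p = 4.4e-05), so EIF5 and EIF5B, which act one after the other, moved apart. Their ratio per length, EIF5 to EIF5B, was 1.26, 1.31 and 1.32 in RBP4 libraries 1, 2 and 3, against 0.575, 0.583 and 0.600 in control libraries 1, 2 and 3. EIF5 was thus below EIF5B in all controls and above it in all RBP4 libraries on the per-length scale. EIF6, which keeps the large ribosomal subunit from joining too early, had 982, 1011 and 926 normalized reads in the RBP4 libraries, against 1185, 1187 and 1069.7 in the controls. It fell 1.18-fold (log2 fold change -0.24, SE 0.05, limma adjusted p = 5.2e-05), and 33.3% of its coding bases overlap AL121753.1, which was listed at 0 to 6.61 normalized reads.

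Genes that regulate or serve the initiation factors were read from 8 lists. Of 53 listed genes, 50 were tested: 10 rose and 24 fell, while 16 stayed short of the threshold, a called share of 68.0% beside 50.6% of all genes tested. Of the 40 that averaged at least 1000 normalized reads, 8 (20%) rose and 22 (55%) fell, beside 15.7% and 56.6% of all such protein-coding genes, so the lists as a whole were near that background. With total-read scaling 16 rose. Of the 4 kinases of eIF2 alpha, 2 (50%) rose and 1 (25%) fell, beside 24.5% and 26.1% of all genes tested. EIF2AK3, which encodes the endoplasmic reticulum kinase PERK, had 352, 344 and 323 normalized reads in the RBP4 libraries, against 246, 278 and 269.8 in the controls, a rise of 1.28-fold (log2 fold change 0.36, SE 0.085, limma adjusted p = 2.6e-04). EIF2AK2, the double-stranded RNA kinase PKR, rose 1.14-fold, and EIF2AK4, the amino acid sensor GCN2, fell 1.11-fold (limma adjusted p = 2.1e-04 and 0.0045). The EIF2AK4 call was lost without control library 3 (0.0551) and with total-read scaling (0.138). EIF2AK1, the heme-regulated kinase, averaged 5939.8 ± 54.3 normalized reads in the RBP4 and 5842 ± 164 in the control libraries (limma adjusted p = 0.491).

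Of 5 genes of the phosphatase that reverses the kinases, both targeting subunits rose and all 3 catalytic subunits fell. All 5 averaged at least 1000 normalized reads. The lowered share of 60% was near the 56.6% of all such protein-coding genes, and the raised share was 40%, beside 15.7%. PPP1R15A, the stress-induced targeting subunit GADD34, had 3032, 3107 and 2997 normalized reads in the RBP4 libraries, against 2261, 2211 and 2048 in the controls, a rise of 1.40-fold (log2 fold change 0.49, SE 0.036, limma adjusted p = 4.8e-19). PPP1CB, a catalytic subunit with many other partners, had 2267, 2175 and 2305 normalized reads in the RBP4 libraries, against 2803, 3006 and 3022 in the controls, and fell 1.31-fold (log2 fold change -0.39, SE 0.036, limma adjusted p = 7.3e-15). PPP1CA fell 1.12-fold (limma adjusted p = 1.3e-04). The changes of PPP1CC, lower by 1.06-fold, and PPP1R15B, higher by 1.07-fold, were small (limma adjusted p = 0.00482 and 0.0104).

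Of 4 tested regulators of eIF4E, 3 (75%) rose while EIF4E fell. Raised genes made up 24.5% of all genes tested and 15.7% of abundant protein-coding genes. EIF4EBP1, a repressor that competes with eIF4G for eIF4E, had 1347, 1342 and 1313 normalized reads in the RBP4 libraries, against 1225, 1209 and 1199 in the controls, a rise of 1.10-fold (limma adjusted p = 0.00652). The ratio of EIF4EBP1 to EIF4E per length was 16.1, 15.2 and 14.7 in RBP4 libraries 1, 2 and 3, against 10.2, 10.6 and 10.02 in control libraries 1, 2 and 3. That ratio was higher in every RBP4 library. MKNK2, a kinase of eIF4E, had 3203, 3163 and 3079 normalized reads in the RBP4 libraries, against 2179, 2116 and 2122 in the controls, a rise of 1.47-fold (log2 fold change 0.56, SE 0.035, limma adjusted p = 1.0e-22). MKNK1 rose 1.12-fold (limma adjusted p = 0.0134), which was lost without RBP4 library 1 (0.123) or control library 3 (0.0709) and with DESeq2 (0.0866). EIF4EBP2 did not pass, and EIF4EBP3, at 1.93 to 4.72 normalized reads, was not tested.

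**Figure D4:**
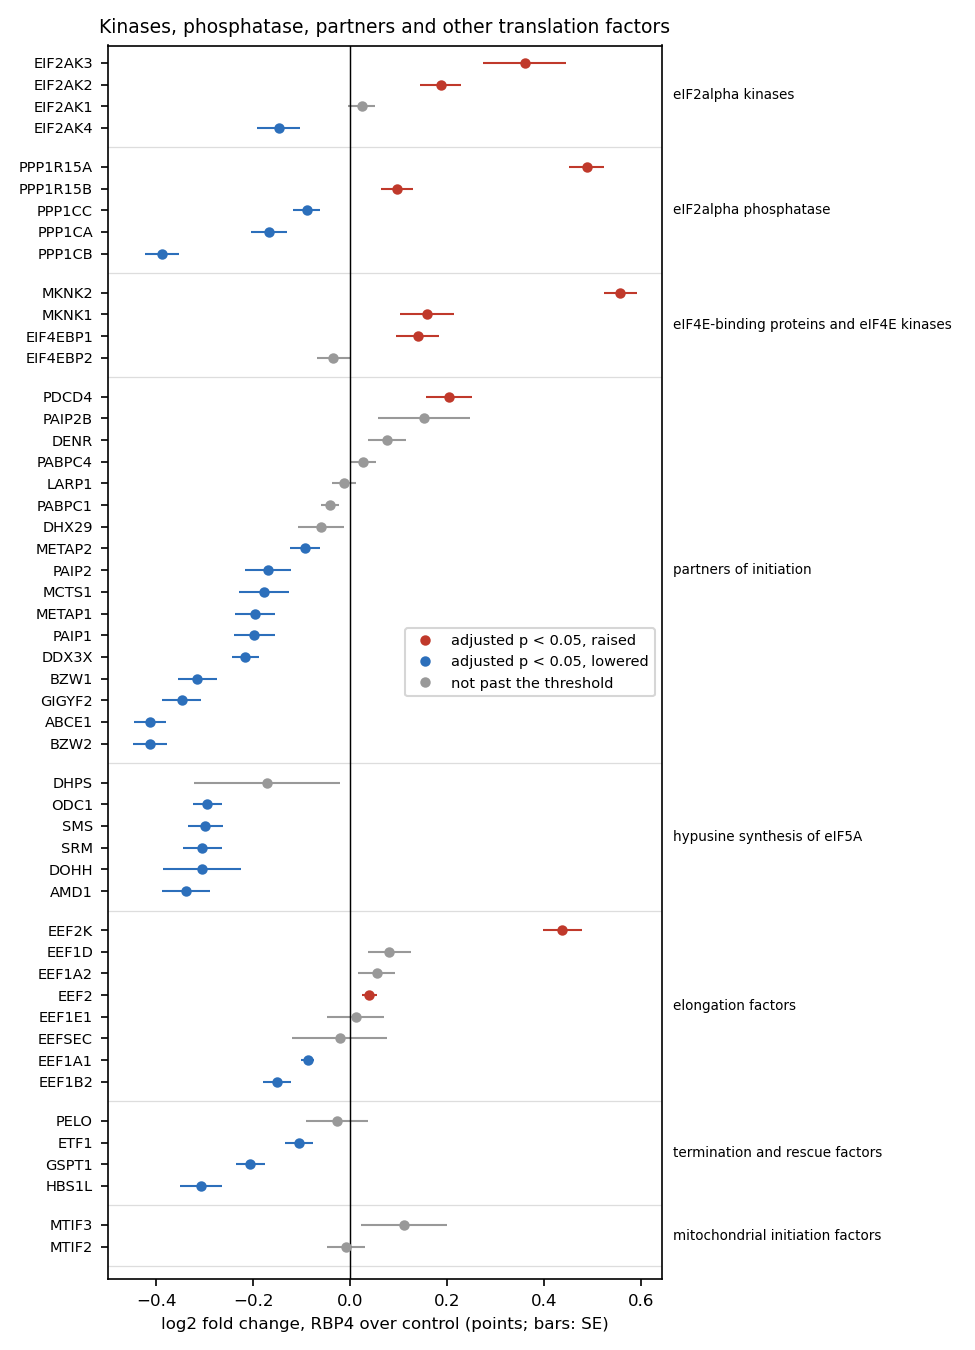
Log2 fold change, RBP4 over control, of the 50 tested genes of the 8 lists of regulators, partners and other translation factors (points, with SE as bars; n = 3 libraries per group). MKNK2, PPP1R15A and EEF2K lie furthest to the right, at 0.56, 0.49 and 0.44, and BZW2 and ABCE1 furthest to the left, both at -0.41.

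Of 17 partners of initiation, 10 (58.8%) fell, 1 rose and 6 did not pass, a lowered share near the 56.6% of all abundant protein-coding genes. BZW2, a mimic of eIF5 that competes with it for eIF2, had 2151, 2200.1 and 2209 normalized reads in the RBP4 libraries, against 2978, 2864 and 2895 in the controls, and fell 1.33-fold (log2 fold change -0.41, SE 0.035, limma adjusted p = 1.7e-16). ABCE1, which splits ribosomes after termination, had 2684, 2709 and 2694 normalized reads in the RBP4 libraries, against 3529, 3502 and 3742 in the controls, and fell 1.33-fold (log2 fold change -0.41, SE 0.033, limma adjusted p = 2.2e-17). GIGYF2, a partner of EIF4E2 in repression, fell 1.27-fold (limma adjusted p = 4.4e-11). BZW2 therefore moved against EIF5, whose place it can take. PDCD4, an inhibitor of the eIF4A helicase and the member that rose, stood at 1218 ± 62.7 normalized reads in the RBP4 and 1055 ± 13.4 in the control libraries (limma adjusted p = 2.0e-04).

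Of 6 genes that make the hypusine of eIF5A or its polyamine precursors, 5 fell and the other was not called (median -0.30 on the log2 scale). Of the 4 that averaged at least 1000 normalized reads 4 fell, beside 56.6% of all such protein-coding genes and 26.1% of all genes tested. AMD1, which supplies the aminopropyl donor of polyamines, had 1398, 1220.0 and 1257 normalized reads in the RBP4 libraries, against 1676, 1502 and 1719.7 in the controls, and fell 1.26-fold (log2 fold change -0.34, SE 0.049, limma adjusted p = 3.8e-07). SRM, the spermidine synthase, fell 1.23-fold, and DOHH, the hydroxylase that completes hypusine, 1.24-fold (limma adjusted p = 1.5e-09 and 0.00108). DHPS, which starts the modification, averaged 88.5 ± 3.96 normalized reads in the RBP4 and 101 ± 19.9 in the control libraries (limma adjusted p = 0.355).

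Later steps of translation showed no common direction in elongation. Of 8 elongation factors tested, 2 (25%) rose, 2 (25%) fell and 4 did not pass. Those shares were near the 24.5% raised and 26.1% lowered of all genes tested. Of the 6 that averaged at least 1000 normalized reads, 2 (33.3%) rose and 2 (33.3%) fell. Among all such protein-coding genes 15.7% rose and 56.6% fell. EEF2K, the kinase that inhibits elongation factor 2, had 2007, 1976 and 1898 normalized reads in the RBP4 libraries, against 1460.3, 1415 and 1466 in the controls, a rise of 1.35-fold (log2 fold change 0.44, SE 0.04, limma adjusted p = 6.0e-15). EEF1B2 fell 1.11-fold and EEF1A1, the abundant carrier of aminoacyl transfer RNA, 1.06-fold (limma adjusted p = 1.4e-05 and 5.4e-08), the second not with total-read scaling (0.206). Of 4 termination and rescue factors tested, 3 (75%) fell, beside 26.1% of all genes tested and 56.6% of abundant protein-coding genes. HBS1L fell 1.24-fold, GSPT1 1.15-fold and ETF1 1.08-fold (limma adjusted p = 9.8e-09, 3.5e-08 and 0.00173), where ETF1 did not pass with total-read scaling (0.297). Neither mitochondrial initiation factor passed (MTIF2 -0.0086 and MTIF3 0.11 on the log2 scale).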

How the data were processed

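For every gene and library the deposited table holds a normalized signal. Per the file headers it also holds log2 fold changes and p-values from the authors' comparison. Aligner, counter and versions: not given in the sources used here. Per the labels' protocols, poly-T selected RNA was made into libraries with a NEBNext Ultra kit, which does not mark strand, so reads of overlapping genes on opposite strands are not separated. In all 6 libraries 100% of the deposited signal values were whole multiples of 1 step (tolerance 0.01 reads), the pattern that whole reads scaled once per library leave. The recovered reads served for depth and for the alternatives with edgeR 4.0.16 and DESeq2 1.42.0. The depth allowed a level of up to 0.183 to 0.197 CPM for a gene with a count of 0 (3 reads), which covers counting error only.

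The main test was limma-trend (R 4.3.3, limma 3.58.1) on log2(normalized reads + 1), robust, two-sided, over all genes with at least 10 in at least 3 libraries, adjusted with the Benjamini-Hochberg method at 0.05. Fold changes are ratios of group means, whereas log2 fold changes come from log2(value + 1) and so are understated where values are low. SE is that of the log2 fold change. TPM was computed from the normalized reads and the deposited gene length, which is that of all annotated exons together. The script was tested on simulated data. All 28847 gene identifiers matched GENCODE 29 (GRCh38) in start and end, and exon overlaps were read from it. Exon overlaps count bases on either strand. Every member is named. Values per library are given for the 2 called members of each factor with the largest absolute log2 fold change, its member highest per length and the paralog sets, and from each list the 3 called genes with the largest absolute change are named; others are named for their part in the comparison, chosen after their values were seen. The members, lists and motifs were chosen with earlier results of these data known. Alternatives were the pseudocount (0.5 and 5), the filter, the scaling, the test, the genes in the fit, the replicate block and leaving out each library. Columns of per-library values not used: 0.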

Additional observations from a re-analysis of the deposited data

How the results depend on the processing

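Of the 29 called members, 21 kept their call and direction under all 16 alternatives: 4 raised (EIF5, EIF4E3, EIF1 and EIF2S3) and 17 lowered. The 8 that lost it under at least 1 were EIF1B, EIF2B2, EIF2S2, EIF3G, EIF3K, EIF4B, EIF4E2 and EIF5AL1. Counts of raised and of lowered members stayed within 1.5 times those reported under every alternative. With the libraries scaled to total reads, 16 genes of the partner lists rose in place of 10, and several log2 fold changes that had not passed changed sign without passing: EIF2A 0.066, EIF2S3B 0.0046, EIF3A 0.040, EIF3C 0.063, EIF3E 0.024, EIF3H 0.023, EIF3J 0.024, EIF3L 0.041, EIF4G2 0.046 and EIF4G3 0.033. That scaling moved the median over all genes up by 0.068 on the log2 scale. EIF2A and EIF3C also changed sign with TMM scaling (0.011 and 0.0080) and with edgeR (0.011 and 0.068), and EIF3C with DESeq2 (0.056). On leaving out each library in turn, log2 fold changes ranged from -0.034 to 0.025 for EIF2A, from -0.16 to 0.0013 for EIF2S3B, from -0.34 to 0.29 for EIF3C, from -0.013 to 0.033 for EIF3F and from -0.067 to 0.0048 for EIF4G3, changing sign without passing. The cause of these changes was not tested. The replicate numbers did not pair the libraries (correlations of same-numbered deviations 0.0037, -0.0079 and -0.017), and with the replicate number as a block 29 members were called, 6 raised and 23 lowered, with 7829 genes in all.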

Other observations

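The table also listed 26 pseudogenes named after initiation factors outside chromosome Y, of which 14 passed the filter on low values. By limma 0 rose, 3 fell and 11 did not pass, and at an unadjusted p under 0.05 one more, EIF4HP2, was higher, beside 24.5% raised and 26.1% lowered among all genes tested. EIF5AP4 averaged 72.5 ± 5.397 normalized reads in the RBP4 and 105 ± 9.365 in the control libraries (SD, n = 3 each), EIF5AP2 38.9 ± 6.998 normalized reads in the RBP4 and 58.0 ± 4.609 in the control libraries (SD, n = 3 each), and EIF4EP2 125 ± 19.43 normalized reads in the RBP4 and 165 ± 25.03 in the control libraries (SD, n = 3 each). They are named as copies of EIF5A and EIF4E, which also fell, and reads of such copies can come from the parent gene.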
